A study of Mus musculus with 18 samples.

Results

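S100a8, S100a9, Clec4d, Clec4e, Csf3r, Cxcr2, Slfn4, Trem1, Fpr1 and Retnlg are 10 genes commonly used to mark neutrophils, the short-lived phagocytes that enter injured heart muscle within hours. They were taken by name from the 24421 genes counted in left ventricles of C57BL/6 mice, and all 10 had a row in each of the 18 libraries. The study compared 6 groups of 3 hearts each. Sesn2-KO mice of 3 to 4 months, which lack the stress-induced protein Sestrin 2 and were bred by the submitters, were studied after ischaemia-reperfusion (IR) or sham surgery. Aged WT mice of 24 to 26 months, supplied by Charles River, and young WT mice of 3 to 4 months, from The Jackson Laboratory, were treated in the same ways. IR meant closing the left anterior descending coronary artery for 45 min and reopening it for 24 h, whereas sham hearts had the chest opened with no closure. The labels name no allele or promoter for the Sesn2 deletion, and genotype cannot be told apart from breeding colony, nor age from supplier. The question followed here is how far the markers moved together when the coronary artery was closed and reopened, when Sesn2 was absent, and with age.

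Neutrophils leave the marrow under granulocyte colony-stimulating factor, follow CXC chemokines and formylated peptides into tissue, and carry calcium-binding alarmins in their cytosol. Csf3r, Cxcr2 and Fpr1 encode the receptors for those 3 kinds of signal. S100a8 and S100a9 encode the 2 chains of calprotectin, a very abundant cytosolic protein of neutrophils and a ligand of Tlr4 and Ager. Trem1, Clec4d and Clec4e encode surface receptors of myeloid cells that amplify inflammatory signalling or recognise dead cells and microbial glycolipids. Most of these genes are also used by inflammatory monocytes, so the list does not mark neutrophils alone. In whole-tissue RNA, fewer cells of a type and less RNA per cell cannot be told apart.

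Of the 10 genes, 4 lie in 2 neighbouring pairs. On GRCm38, S100a8 (chr3:90668978-90670035, plus strand) and S100a9 (chr3:90692632-90695721, minus strand) are separated by 22596 bases. Clec4d (chr6:123262111-123275265, plus strand) and Clec4e (chr6:123281789-123289870, minus strand) are separated by 6523 bases. The 250 bases before the RefSeq start of these 4 genes (table of build GRCm38.p6) are shown because the members of each pair are neighbours. S100a8 and S100a9 also varied more closely together than Clec4d and Clec4e did. The members of each pair are transcribed toward each other, so their windows lie at the outer ends of the pair and do not adjoin. Capitals mark the purine-rich core GAGGAA or its reverse complement TTCCTC, a core recognised by the myeloid transcription factor PU.1:
S100a8, chr3:90668821-90669070, plus strand: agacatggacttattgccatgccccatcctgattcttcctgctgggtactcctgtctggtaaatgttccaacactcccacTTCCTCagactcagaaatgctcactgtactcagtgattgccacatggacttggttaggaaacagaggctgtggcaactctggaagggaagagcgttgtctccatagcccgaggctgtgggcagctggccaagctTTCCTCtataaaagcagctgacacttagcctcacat
S100a9, chr3:90695722-90695971, minus strand: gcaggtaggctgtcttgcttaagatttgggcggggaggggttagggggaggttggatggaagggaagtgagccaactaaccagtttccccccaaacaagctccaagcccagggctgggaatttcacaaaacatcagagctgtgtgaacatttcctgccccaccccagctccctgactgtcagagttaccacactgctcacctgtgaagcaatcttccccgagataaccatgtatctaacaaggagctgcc
Clec4d, chr6:123261857-123262106, plus strand: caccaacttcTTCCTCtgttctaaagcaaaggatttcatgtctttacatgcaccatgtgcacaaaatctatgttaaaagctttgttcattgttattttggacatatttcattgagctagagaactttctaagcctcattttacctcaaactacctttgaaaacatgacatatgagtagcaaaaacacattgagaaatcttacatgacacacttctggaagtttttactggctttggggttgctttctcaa
Clec4e, chr6:123289872-123290121, minus strand: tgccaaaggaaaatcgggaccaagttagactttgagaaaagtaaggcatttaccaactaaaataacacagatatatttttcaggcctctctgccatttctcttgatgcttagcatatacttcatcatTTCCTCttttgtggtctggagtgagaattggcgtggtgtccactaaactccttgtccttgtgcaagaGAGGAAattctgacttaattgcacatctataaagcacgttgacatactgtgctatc
The S100a8 window reaches past the gene start of GENCODE M21, which lies upstream of the RefSeq start. The core was found on either strand in 6 of the 10 markers (S100a8, Clec4d, Clec4e, Csf3r, Cxcr2 and Trem1) and in 23.3% of 32851 promoter windows of the same length. The C/EBP-type motif TTGCNNAA was found in 3 of 10 (S100a9, Clec4e and Retnlg), against 9.56% of all windows. TATAAA was found in 4 of 10 (S100a8, Clec4e, Slfn4 and Fpr1), against 12.4% of all windows, and an NF-kB-type motif in 1 of 10 (Csf3r), against 17.6%. No match to one motif overlapped a match to another. A match describes these letters only and is not evidence of binding.

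Libraries held 9404531 to 14458047 gene counts, and levels are given as CPM, a gene's count scaled by the total of gene counts in its library. Sesn2 had 0 to 5 counts in the 6 Sesn2-KO libraries, against 30 to 86 counts in the 12 WT libraries. Cardiomyocyte markers such as Myh6 summed to between 37063 and 53459 CPM in every library. In each group, the deviations of 1 library from the group mean rose most with transcript length (Spearman's rho 0.337 to 0.515 across genes), and results are also given without these 6 length-tilted libraries: Sesn2-KO IR 3, Sesn2-KO sham 3, aged WT IR 3, aged WT sham 1, young WT IR 3 and young WT sham 1. Libraries that leaned toward shorter transcripts were kept, although aged WT sham 2 (-0.368) leaned slightly further than aged WT sham 1 (0.359) did toward longer ones, and young WT sham 2 was at -0.458.

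All 10 markers were higher in every sham-operated Sesn2-KO heart than in every sham-operated young WT heart, as were 14.9% of all genes tested. All 10 were also higher in every IR heart than in every sham heart of aged WT mice (14.8% of genes tested) and of young WT mice (12.7%). The 10 markers summed to 107 to 209 CPM in Sesn2-KO IR hearts and 42.9 to 93.3 CPM in Sesn2-KO sham hearts. The sums were 105 to 194 CPM in aged WT IR hearts and 6.92 to 21.3 CPM in aged WT sham hearts. Young WT hearts had 77.1 to 150 CPM after IR and 5.82 to 8.24 CPM after sham surgery. For each of the 10 genes the Sesn2-KO sham group had the fourth highest mean of the 6 groups, below the 3 IR groups and above both WT sham groups.

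**Figure D1:**
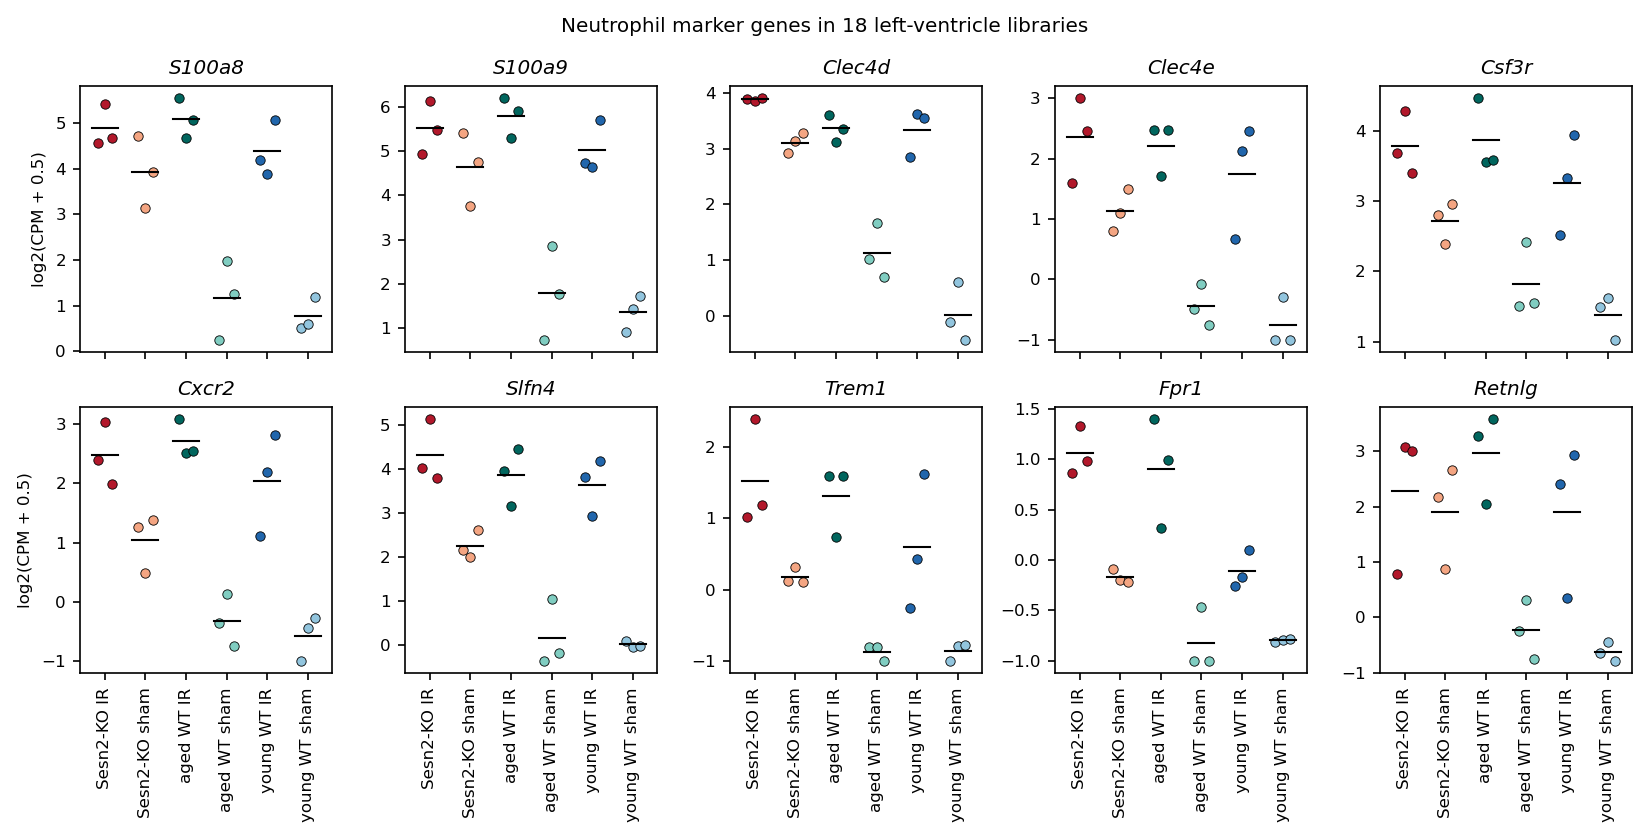
Level of each of the 10 markers in each library as log2(CPM + 0.5), with 1 point per heart and a bar at the mean of the 3 hearts of a group; the scale differs between panels. The WT sham points lie lowest in every panel, except that aged WT sham 2 (4.82 CPM) passes Sesn2-KO sham 2 (4.76 CPM) for Csf3r, and Sesn2-KO sham points lie between them and the IR points or among the IR points.

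The alarmins S100a8 and S100a9 were the most abundant of the 10 per kilobase (kb) of the longest GENCODE transcript in every group, at 60.6 and 92.7 CPM per kb in Sesn2-KO IR hearts, against 2.49 and 4.14 CPM per kb in young WT sham hearts. S100a8 stood at 23.3, 42.3 and 25.0 CPM in Sesn2-KO hearts after IR, and at 26.0, 8.34 and 14.8 CPM after sham surgery. In aged WT hearts it stood at 46.4, 25.1 and 32.9 CPM after IR, and at 0.692, 3.41 and 1.87 CPM after sham surgery. In young WT hearts it stood at 17.8, 14.4 and 33.2 CPM after IR, and at 0.912, 1.02 and 1.79 CPM after sham surgery. The IR and sham ranges were far apart in both WT groups and overlapped in Sesn2-KO hearts, where sham heart 1 was above IR heart 1. S100a9 followed with 30.3 to 69.8 CPM after IR and 13.0 to 41.7 CPM after sham surgery in Sesn2-KO hearts, 38.6 to 72.9 CPM after IR and 1.18 to 6.75 CPM after sham surgery in aged WT hearts, and 24.4 to 51.3 CPM after IR and 1.40 to 2.84 CPM after sham surgery in young WT hearts. The ratio of S100a9 to S100a8 counts stayed between 1.30 and 2.15 over all 18 libraries, while S100a8 itself ranged from 0.692 to 46.4 CPM. Together the 2 chains made up 27.0% to 72.5% of the 10-gene sum.

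Among the receptors for recruiting signals, Cxcr2, the receptor of the chemokines Cxcl1, Cxcl2 and Cxcl5, stood at 4.77, 7.68 and 3.48 CPM in Sesn2-KO hearts after IR, and at 1.90, 0.893 and 2.10 CPM after sham surgery. In aged WT hearts Cxcr2 was at 8.00, 5.21 and 5.32 CPM after IR, and at 0.277, 0.593 and 0.0935 CPM after sham surgery. In young WT hearts it was at 1.67, 4.10 and 6.58 CPM after IR, and at 0, 0.235 and 0.325 CPM after sham surgery. Only 7 counts of Cxcr2 were found over the 3 young WT sham hearts, so its level there rests on few counts. Csf3r, the receptor through which granulocyte colony-stimulating factor drives neutrophil production, had 0.617 CPM per kb in young WT sham hearts, against 0.0613 CPM per kb for Cxcr2 and 0.0578 for Fpr1. Csf3r stood at 9.996 to 18.9 CPM after IR and 4.76 to 7.24 CPM after sham surgery in Sesn2-KO hearts, 11.3 to 21.6 CPM after IR and 2.35 to 4.82 CPM after sham surgery in aged WT hearts, and 5.25 to 14.8 CPM after IR and 1.54 to 2.59 CPM after sham surgery in young WT hearts. Csf3r was the one marker whose Sesn2-KO sham range overlapped the aged WT sham range, at 4.76 CPM in the lowest and 4.82 CPM in the highest heart.

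Fpr1, the receptor for formylated peptides from bacteria and mitochondria, was close to the limit of detection in WT sham hearts. Its counts were 13, 24 and 20 in Sesn2-KO IR hearts and 6, 5 and 5 in Sesn2-KO sham hearts. They were 28, 7 and 17 in aged WT IR hearts and 0, 3 and 0 in aged WT sham hearts. Young WT hearts had 4, 5 and 6 counts after IR and 1, 1 and 1 after sham surgery. As CPM, Fpr1 averaged 1.60 ± 0.358 in Sesn2-KO IR hearts and 1.45 ± 0.694 in aged WT IR hearts, against 0.431 ± 0.126 in young WT IR hearts (SD, n = 3 each). Every Sesn2-KO IR heart was above every young WT IR heart, as for Clec4d and for 8.14% of genes tested. Every aged WT IR heart was too, as for 2.44% of genes tested and for none of the other 9 markers. EdgeR called neither difference.

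Clec4d (also called MCL) and Clec4e (Mincle) are C-type lectin receptors that pair with the adaptor Fcer1g and signal through Syk and Card9. Clec4d stood at 14.3, 14.0 and 14.5 CPM in Sesn2-KO hearts after IR, and at 7.03, 8.26 and 9.26 CPM after sham surgery. In aged WT hearts it stood at 11.7, 8.19 and 9.77 CPM after IR, and at 1.52, 2.67 and 1.12 CPM after sham surgery. In young WT hearts it stood at 6.75, 11.7 and 11.2 CPM after IR, and at 0.421, 1.02 and 0.243 CPM after sham surgery. Of the 10 markers, Clec4d alone had no overlap between aged WT and young WT sham hearts, and it alone had none between Sesn2-KO and aged WT IR hearts, a separation found in 5.71% and 9.29% of genes tested. Clec4e had 2.54 to 7.51 CPM after IR and 1.25 to 2.32 CPM after sham surgery in Sesn2-KO hearts, 2.76 to 5.06 CPM after IR and 0.0935 to 0.445 CPM after sham surgery in aged WT hearts, and 1.08 to 4.96 CPM after IR and 0 to 0.314 CPM after sham surgery in young WT hearts. Its 4 counts in young WT sham hearts came from 1 heart.

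Trem1, which amplifies Toll-like receptor signalling through the adaptor Tyrobp, had 15, 57 and 24 counts in Sesn2-KO IR hearts and 8, 10 and 8 in Sesn2-KO sham hearts. It had 33, 11 and 29 counts in aged WT IR hearts and 1, 1 and 0 in aged WT sham hearts, and 4, 11 and 27 counts in young WT IR hearts and 0, 1 and 1 in young WT sham hearts. In WT sham hearts Trem1 was thus at the limit of detection. Over summed counts, the ratio of CPM was 41.5 (95% exact interval 11.1 to 349) between aged WT IR and aged WT sham hearts, 23.3 (6.06 to 199) between young WT IR and young WT sham hearts, and 12.5 (3.13 to 109) between Sesn2-KO sham and young WT sham hearts. These intervals cover counting error only.

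Slfn4, a schlafen family gene induced in activated myeloid cells, stood at 15.6, 34.6 and 13.3 CPM in Sesn2-KO hearts after IR, and at 3.96, 3.50 and 5.57 CPM after sham surgery. In aged WT hearts it stood at 14.9, 8.40 and 21.4 CPM after IR, and at 0.277, 1.56 and 0.374 CPM after sham surgery. In young WT hearts it stood at 13.6, 7.11 and 17.5 CPM after IR, and at 0.561, 0.471 and 0.487 CPM after sham surgery. Slfn4 was the one marker for which all Sesn2-KO sham hearts lay below all young WT IR hearts, as 4.79% of genes tested did; the other 9 overlapped. Retnlg, a resistin-like secreted protein of mouse myeloid cells, had 1.22 to 7.93 CPM after IR and 1.34 to 5.79 CPM after sham surgery in Sesn2-KO hearts. In aged WT hearts it had 3.62 to 11.4 CPM after IR and 0.0935 to 0.741 CPM after sham surgery, and in young WT hearts 0.773 to 7.15 CPM after IR and 0.0811 to 0.235 CPM after sham surgery. Only 6 counts of Retnlg were found over the 3 young WT sham hearts, and 16 over the 3 aged WT sham hearts. Hearts of one group differed widely in Retnlg: Sesn2-KO IR heart 1 and young WT IR heart 2 were each several-fold below the other 2 hearts of their group. Slfn4 lies 1113 bases from its relative Slfn3, Trem1 852 bases from Trem3 and Fpr1 3883 bases from Fpr2, and how the authors counted reads shared between such relatives is not given in the sources used here.

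In young WT hearts, 9 of the 10 markers rose after IR at an adjusted p below 0.05 (edgeR's quasi-likelihood test over 13859 genes), where 4.17% of all genes tested were called higher. The median log2 fold change was 4.21 over the 10 markers and 0.01 over all genes tested. Clec4d had the smallest adjusted p (log2 fold change 4.09 ± 0.37 (SE), adjusted p = 2.757e-05), followed by Slfn4 (4.60 ± 0.60, adjusted p = 0.000602) and S100a8 (4.11 ± 0.55, adjusted p = 0.000617). Csf3r rose least among those called (2.16 ± 0.41, adjusted p = 0.00622). Fpr1 was not called (2.32 ± 0.76, adjusted p = 0.0823), with 15 counts over the IR hearts and 3 over the sham hearts, a ratio of CPM of 5.55 (95% exact interval 1.57 to 29.9). Trem1 and Retnlg lost their calls without young WT sham 1 (adjusted p = 0.0728 and 0.0751), without young WT sham 3 (0.0509 and 0.0687) or without young WT IR 3 (0.0878 and 0.0799). With the young WT groups alone in the fit, Clec4e was not called (4.85, adjusted p = 0.0584), and Trem1, Fpr1 and Retnlg did not pass the filter on low counts. Voom, which called 11.5% of genes tested higher, called Fpr1 (adjusted p = 0.0278) and did not call Retnlg (adjusted p = 0.0532). Without the 6 length-tilted libraries, with 2 hearts a group, 1 of the 10 markers, Clec4d, was called. Among the 8 calls lost there, Slfn4 was at 4.37, Retnlg at 4.02, S100a8 at 3.47 and Trem1, which moved most, at 2.70, against 4.60, 4.69, 4.11 and 4.31 with all libraries.

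In aged WT hearts all 10 markers rose after IR, where 5.36% of genes tested were called higher and 2.24% lower, and the median log2 fold change was 4.12. Trem1 had the highest (5.10 ± 0.90 (SE), adjusted p = 0.00398) and Csf3r the lowest (2.21 ± 0.39, adjusted p = 0.00397). S100a8 (4.14 ± 0.52, adjusted p = 0.000381) and S100a9 (3.98 ± 0.55, adjusted p = 0.000787) differed from their responses in young WT hearts by 0.02 ± 0.94 and 0.02 ± 0.89 (SE). Fpr1 was called here (4.10 ± 0.64, adjusted p = 0.00158). Retnlg was not called without aged WT sham 1 (4.16, adjusted p = 0.0678). Fpr1 did not pass the filter on low counts with the aged WT groups alone. Without the 6 length-tilted libraries 4 of the 10 were called: S100a8, S100a9, Cxcr2 and Slfn4. The 6 not called there had log2 fold changes of 2.14 (Csf3r) to 5.18 (Trem1), among them Clec4d at 2.34, against 2.47 with all libraries.

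In Sesn2-KO hearts none of the 10 markers was called between IR and sham, and none of the 13859 genes tested was (percent called 0; edgeR's quasi-likelihood test), although 7 markers and 2037 genes had an unadjusted p below 0.05. The 10 log2 fold changes lay between 0.53 (Retnlg, SE 0.69) and 2.23 (Slfn4, SE 0.46), with a median of 1.29 and adjusted p-values from 0.197 to 0.768. DESeq2 called Slfn4 (2.22, adjusted p = 0.00833) and 0.538% of its genes tested higher. Limma's voom with quality weights called 7 markers, all but S100a8, S100a9 and Retnlg, with adjusted p-values reaching down to 0.0153, where it called 5.16% of genes tested higher. For 7 markers every IR heart was above every sham heart, against 12.6% of genes tested; S100a8, S100a9 and Retnlg overlapped.

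Between the sham groups, edgeR called 8 of the 10 markers higher in Sesn2-KO than in young WT hearts, where 3.32% of genes tested were called higher. Their median log2 fold change was 3.53 over all 10, against 0.02 over all genes tested. Clec4d was at 3.85 ± 0.37 (SE, adjusted p = 3.339e-05), S100a8 at 3.73 ± 0.55 (adjusted p = 0.00117), S100a9 at 3.66 ± 0.58 (adjusted p = 0.00192) and Slfn4 at 3.08 ± 0.63 (adjusted p = 0.0107). Retnlg was at 4.53 ± 1.07 (adjusted p = 0.0230) and Csf3r at 1.51 ± 0.41 (adjusted p = 0.0439). Trem1 (3.40 ± 1.03, adjusted p = 0.0697) and Fpr1 (2.22 ± 0.75, adjusted p = 0.106) were not called by edgeR, with 26 and 16 counts over the Sesn2-KO and 2 and 3 over the young WT sham hearts. DESeq2 called 9 markers, adding Trem1 (adjusted p = 0.0429), where it called 4.01% of its genes tested higher. Voom called all 10, with Trem1 at an adjusted p of 0.0185 and Fpr1 at 0.0327, where it called 8.9% of genes tested higher. Leaving out 1 library gave 4 called markers without young WT sham 1 or without young WT sham 3. It gave 5 without young WT sham 2, Sesn2-KO sham 1 or Sesn2-KO sham 3, and 7 without Sesn2-KO sham 2. S100a8, S100a9, Clec4d and Slfn4 were called each time. Without the 6 length-tilted libraries 2 markers, S100a8 and Clec4d, were called. Among those not called there, S100a9 was at 3.39, Slfn4 at 2.89 and Csf3r at 1.39, against 3.66, 3.08 and 1.51 with all libraries, and Cxcr2 was at 2.24. For 9 markers, all but Csf3r, every Sesn2-KO sham heart was above every aged WT sham heart, as for 14.9% of genes tested.

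Set beside the IR hearts, the Sesn2-KO sham hearts had means of 16.4 ± 8.94 CPM of S100a8 and 8.19 ± 1.12 CPM of Clec4d, against 21.8 ± 10.02 and 9.88 ± 2.73 CPM in young WT IR hearts (SD, n = 3 each). No marker was higher in every Sesn2-KO sham heart than in every young WT IR heart, where 5.73% of genes tested were, and 9 of 10 overlapped. Against aged WT IR hearts, no marker was higher in every Sesn2-KO sham heart, where 7.67% of genes tested were, while 6 markers were lower in every one, as were 4.04% of genes tested, and 4 overlapped.

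The IR response of Sesn2-KO hearts minus that of young WT hearts was below 0 for all 10 markers, from -4.16 (Retnlg, SE 1.32) to -0.36 (Fpr1, SE 0.77), with a median of -2.98, against -0.03 over all genes tested. Of the 10, 1 was called: Clec4d at -3.35 ± 0.47 (SE, adjusted p = 0.0111), where 0.0577% of genes tested were called lower. Its response was 0.75 ± 0.28 in Sesn2-KO hearts and 4.09 ± 0.37 in young WT hearts on the log2 scale. The other 6 markers with an unadjusted p below 0.05 had adjusted p-values of 0.188 or more, among them S100a8 (-3.28 ± 0.70, adjusted p = 0.188) and S100a9 (-3.19 ± 0.74, adjusted p = 0.308). DESeq2 called S100a8, S100a9 and Clec4d, and 0.137% of its genes tested lower; voom called Clec4d, and 0.0866% of genes tested lower. In edgeR, Clec4d was not called without young WT sham 1 (-3.15, adjusted p = 0.0899), without young WT sham 3 (-3.02, adjusted p = 0.0538) or without the 6 length-tilted libraries (-2.94, adjusted p = 0.985). The difference equals the comparison of Sesn2-KO with young WT hearts after IR minus the same comparison after sham surgery. It therefore contains the whole sham comparison, and the 2 results are not independent. For Clec4d the comparison was 0.50 ± 0.28 after IR and 3.85 ± 0.37 after sham surgery.

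**Figure D2:**
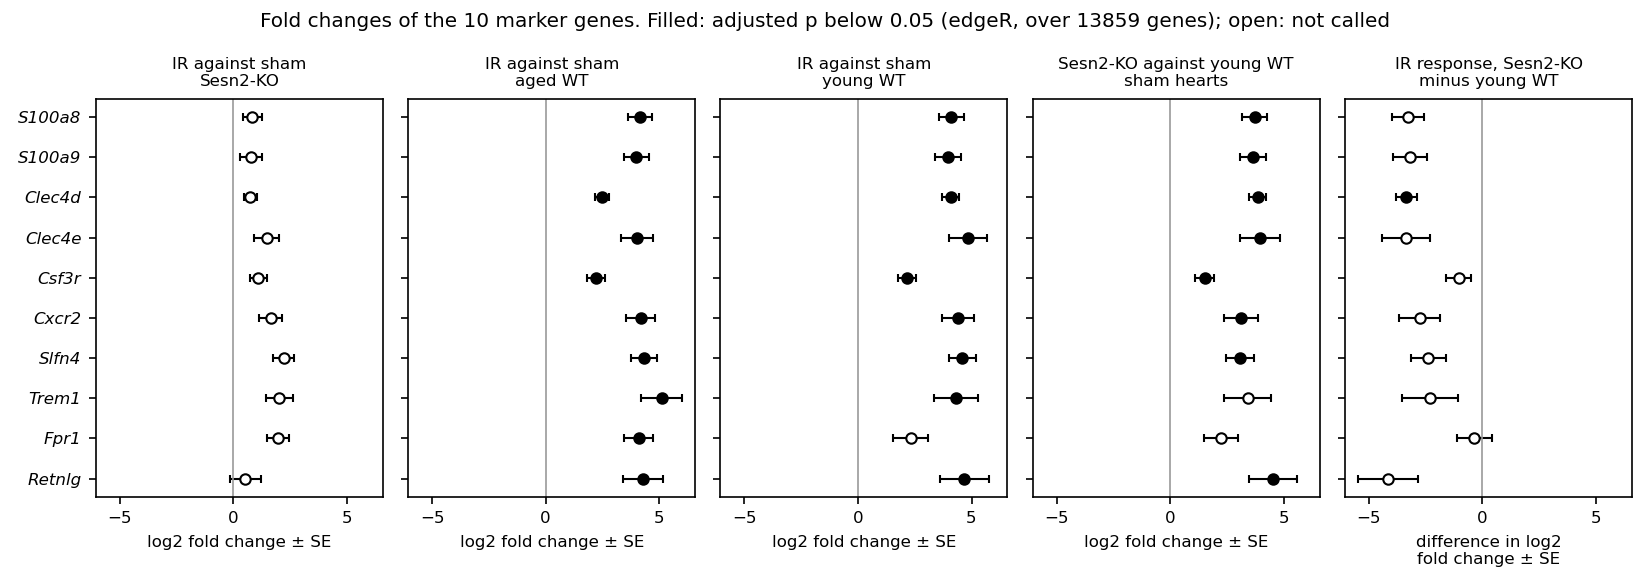
Log2 fold changes of the 10 markers with their standard errors in 5 comparisons (edgeR); filled points have an adjusted p below 0.05 over 13859 genes and open points do not. The Sesn2-KO response to IR lies between 0.53 and 2.23, and for each marker it is nearer to 0 than in aged WT and young WT hearts. For Fpr1 the difference from young WT is smaller than its SE (-0.36 ± 0.77). The sham comparison of Sesn2-KO with young WT lies between 1.51 and 4.53.

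After IR, edgeR called none of the 10 markers between Sesn2-KO and young WT hearts, where 0.31% of genes tested were called higher and 0.123% lower, and gave 1 marker an unadjusted p below 0.05. That marker was Fpr1 (1.86 ± 0.49 (SE), adjusted p = 0.121). The other 9 log2 fold changes were between 0.35 and 1.10. Clec4d (0.50 ± 0.28, adjusted p = 0.468) and Fpr1 were higher in every Sesn2-KO IR heart, against 8.14% of genes tested. DESeq2 and voom called none either.

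Between aged and young WT hearts no marker was called in either state by edgeR. After sham surgery 0.144% of genes tested were called higher and 0.00722% lower in aged WT hearts, and Clec4d was the 1 marker with an unadjusted p below 0.05 (1.67 ± 0.42 (SE), adjusted p = 0.276). DESeq2 (adjusted p = 0.0295) and voom (adjusted p = 0.0352) called it, where they called 0.193% and 1.01% of their genes tested higher. Its level was 1.77 ± 0.803 CPM in aged WT sham hearts and 0.561 ± 0.407 CPM in young WT sham hearts (SD, n = 3 each), with no overlap, against 5.71% of genes tested. After IR, 0.0649% of genes were called higher in aged WT hearts, and Fpr1 had the smallest p of the 10 (1.81 ± 0.49, adjusted p = 0.439). It was also the 1 marker with no overlap, against 2.44% of genes tested. The IR response of aged WT minus young WT hearts was not called for any marker (percent called 0) and ran from -1.62 ± 0.50 for Clec4d to 1.78 ± 1.24 for Fpr1, 5 below and 5 above 0; edgeR gave 1 of them an unadjusted p below 0.05. DESeq2 and voom called no marker after IR or for this difference.

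How far the markers rose together was read inside groups, after each group's mean of log2(CPM + 0.5) was removed, so that the differences between groups did not enter. Over the 45 pairs of markers and 18 libraries, Pearson's r had a median of 0.607 and Spearman's rho a median of 0.604. All 45 r values were above 0, from 0.138 (S100a8 with Clec4d) to 0.971 (S100a8 with S100a9). Among all pairs of 13058 genes the median r was 0.02, and 10.3% of pairs were above the markers' median. These are descriptions only. Depth and length tilt differed between the 3 libraries of each group, and their part in these r values was not tested. S100a8 and S100a9 formed the tightest pair, followed by Csf3r with Cxcr2 (0.832) and Clec4e with Trem1 (0.811). Clec4d and Clec4e, the neighbours on chromosome 6, had an r of 0.720. Clec4d was the loosest member, with a median r of 0.369 with the other 9, and Csf3r the tightest, with 0.685. Trem1 and Fpr1 have few counts, which lowers what any correlation with them can show.

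**Figure D3:**
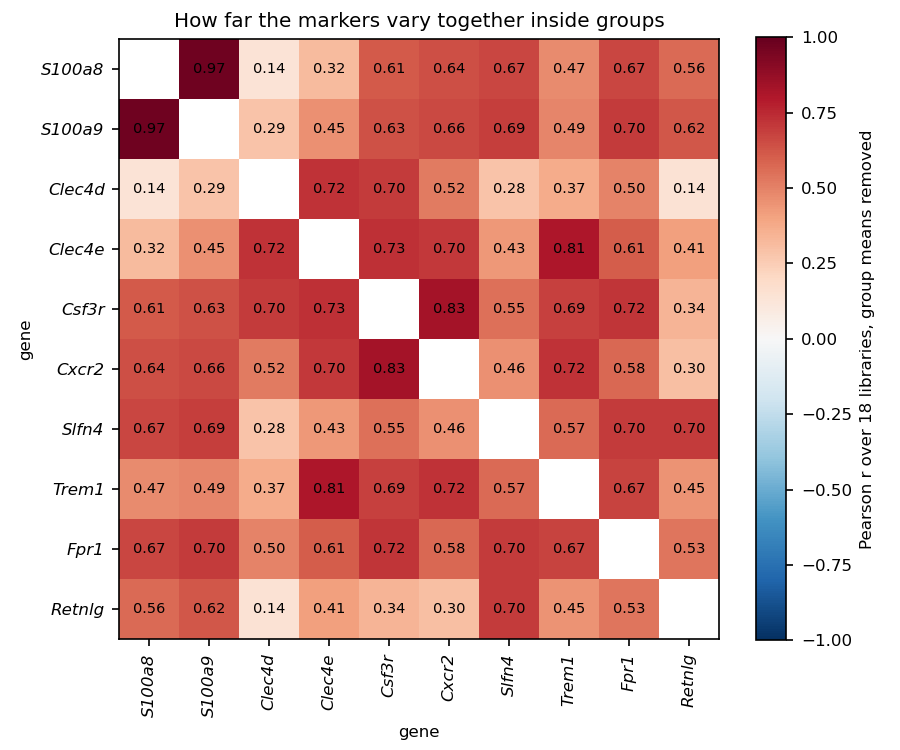
Pearson's r of each pair of markers over 18 libraries after removing group means of log2(CPM + 0.5), printed in each cell and coloured from -1 (blue) to 1 (red). No cell is below 0; the S100a8 and S100a9 cell is darkest at 0.97 and the palest cells are those of Clec4d with S100a8 and Retnlg, at 0.14.

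The same hearts tended to be high for many markers at once. Sesn2-KO IR heart 2 was the highest of its group for every marker but Clec4d, and young WT IR heart 3 was likewise the highest for 9. Aged WT IR heart 2 was the lowest of its group for all 10, and aged WT sham heart 2 the highest of its group for all 10. In Sesn2-KO sham hearts the order was less uniform, with heart 3 highest for 6 markers, heart 1 for 3 and heart 2 for 1. In young WT sham hearts, where no marker had more than 35 counts, no heart led for more than 5 markers. The share of the 10-gene sum that came from S100a8 and S100a9 was 72.5% in Sesn2-KO sham heart 1 and 49.8% in Sesn2-KO sham heart 2.

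Outside the list, the 10 genes most like the mean profile of the markers over the 18 libraries, among 13049 genes averaging 1 CPM or more, were Chil3, Il4ra, Arg1, Timp1, Ccl9, Cxcl5, Msr1, Il1r2, Pdpn and Ms4a6d, with Pearson's r from 0.964 to 0.983. The libraries fall into groups, so these r values mostly follow group means; inside groups r was 0.656 (Il1r2) to 0.860 (Il4ra). Chil3 (a chitinase-like protein of neutrophil granules and macrophages) averaged 29.2 CPM in Sesn2-KO IR hearts, 7.63 in Sesn2-KO sham, 35.2 in aged WT IR, 0.760 in aged WT sham, 17.2 in young WT IR and 0.315 in young WT sham hearts. Arg1, which breaks down arginine in activated myeloid cells, averaged 56.3 CPM in Sesn2-KO IR and 8.94 CPM in Sesn2-KO sham hearts, 33.2 CPM in aged WT IR and 0.0247 CPM in aged WT sham hearts, and 19.1 CPM in young WT IR and 0.108 CPM in young WT sham hearts. Timp1, an inhibitor of matrix metalloproteinases made by many cell types, averaged 317 CPM in Sesn2-KO IR and 83.6 CPM in Sesn2-KO sham hearts, 175 CPM in aged WT IR and 5.78 CPM in aged WT sham hearts, and 129 CPM in young WT IR and 2.96 CPM in young WT sham hearts.

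Other neutrophil genes were read from lists that, like the markers, were chosen with earlier results of these data known. Of 13 granule proteins, 7 passed the filter on low counts. Lcn2, Mmp9, Chil3, Hp and Mmp8 were higher in Sesn2-KO than in young WT sham hearts. After IR edgeR called 6 of the 13 higher in aged WT hearts (these 5 and Cd177) and 5 in young WT hearts (the same 5). In Sesn2-KO hearts it called none of the 13859 genes tested, so 0 was fixed for this and every list below. In these lists, rose means called higher. The median log2 fold change over the 7 tested was 0.50 in Sesn2-KO hearts and 3.43 in young WT hearts. Lcn2, which binds bacterial siderophores and is also made by stressed parenchymal cells, averaged 404 CPM in Sesn2-KO IR and 369 CPM in Sesn2-KO sham hearts, 330 CPM in aged WT IR and 4.07 CPM in aged WT sham hearts, and 238 CPM in young WT IR and 3.62 CPM in young WT sham hearts. Its IR response was lower in Sesn2-KO than in young WT hearts (-5.96 ± 0.89 (SE), adjusted p = 0.0121). The 13 granule proteins together averaged 467 CPM in Sesn2-KO IR and 405 CPM in Sesn2-KO sham hearts. They averaged 398 CPM in aged WT IR and 269 CPM in young WT IR hearts, so most of each of these sums was Lcn2. Among granule genes that are transcribed in marrow precursors, Elane had no count in any library, and Camp, Ngp, Ltf, Mpo and Ctsg had at most 5 counts in any group of 3 hearts. Prtn3, another of them, passed the filter on low counts, with 18 counts in Sesn2-KO IR and 24 in Sesn2-KO sham hearts, 18 in aged WT IR and 6 in aged WT sham hearts, and 9 in young WT IR and 5 in young WT sham hearts. It was not called between the sham groups (2.11 ± 0.93 (SE), adjusted p = 0.227) or after IR. Of 14 further neutrophil genes, 0 rose after IR in Sesn2-KO hearts (median 0.79), 4 in aged WT hearts and 5 in young WT hearts (median 1.46). Their summed level overlapped between states in 2 of the 3 kinds of mice: it was 75.8 to 127 CPM in Sesn2-KO IR and 84.9 to 110 CPM in Sesn2-KO sham hearts, 75.0 to 101 CPM in aged WT IR and 57.7 to 67.7 CPM in aged WT sham hearts, and 71.2 to 104 CPM in young WT IR and 82.6 to 92.7 CPM in young WT sham hearts. Most of that sum was G0s2, an inhibitor of lipolysis that other cells also express, at 71.7 CPM in young WT IR and 79.5 CPM in young WT sham hearts. Il1r2, the decoy receptor of interleukin-1, rose in aged WT (3.94 ± 0.56, adjusted p = 0.00096) and young WT hearts (5.61 ± 0.72, adjusted p = 0.000528). In Sesn2-KO hearts Il1r2 was at 1.92 ± 0.44 and was not called (adjusted p = 0.197). It was the 1 of the 14 that was higher in Sesn2-KO than in young WT sham hearts (4.34 ± 0.79, adjusted p = 0.00489).

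A list of 11 genes for chemoattractants and growth factors of neutrophils included the general inflammatory cytokines Il1b and Il6. Of the 11, 6 rose after IR in aged WT hearts and 6 in young WT hearts (Il1b, Il6, Cxcl5, Ppbp, Cxcl1 and Cxcl2 in both). In Sesn2-KO hearts 0 rose, and no gene tested was called there. Their median log2 fold change over the 8 tested was 1.20 in Sesn2-KO hearts and 3.05 in young WT hearts. Between the sham groups 5 of them, all of these but Ppbp, were higher in Sesn2-KO than in young WT hearts. Cxcl5, a ligand of Cxcr2, averaged 26.3 CPM in Sesn2-KO IR and 8.64 CPM in Sesn2-KO sham hearts, 22.0 CPM in aged WT IR and 0.474 CPM in aged WT sham hearts, and 21.5 CPM in young WT IR and 0.462 CPM in young WT sham hearts. Csf3, the ligand of Csf3r, had at most 4 counts in any group. Of 9 adhesion genes, 0 rose after IR in Sesn2-KO hearts, 4 in aged WT hearts (Sele, Selp, Itgam and Icam1) and 4 in young WT hearts (Selp, Itgb2, Itgam and Icam1). Their median was 0.49 in Sesn2-KO and 0.76 in young WT hearts, and 3 were higher in Sesn2-KO than in young WT sham hearts. Selp, the endothelial and platelet selectin on which neutrophils roll, had an IR response of 3.23 ± 0.49 (SE, adjusted p = 0.00132) in aged WT hearts and 2.53 ± 0.49 (adjusted p = 0.0067) in young WT hearts. In Sesn2-KO hearts its response was 1.91 ± 0.41 and was not called (adjusted p = 0.197).

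Of 10 signalling partners and other receptors of the markers, 3 rose after IR in aged WT hearts (Fcer1g, Card9 and Tyrobp) and 2 in young WT hearts (Syk and Anxa1). In Sesn2-KO hearts, where no gene tested was called, 0 rose. Their median over the 9 tested was 0.32 in Sesn2-KO and 0.65 in young WT hearts. Of the 10, 1, Anxa1, was higher in Sesn2-KO than in young WT sham hearts. Of 25 family relatives, 0 rose after IR in Sesn2-KO hearts, 7 in aged WT hearts and 8 in young WT hearts. Their median over the 20 tested was 0.54 in Sesn2-KO and 0.77 in young WT hearts. Of the 25, 3 (S100a4, S100a11 and Clec4n) were higher in Sesn2-KO than in young WT sham hearts. Retnla, the neighbour of Retnlg 28159 bases away and a product of alternatively activated macrophages, went the other way: it fell after IR in aged WT hearts (-1.54 ± 0.41 (SE), adjusted p = 0.0307) and in young WT hearts (-1.92 ± 0.41, adjusted p = 0.0134). Retnla averaged 2.39 CPM in Sesn2-KO IR and 6.50 CPM in Sesn2-KO sham hearts, 4.35 CPM in aged WT IR and 12.7 CPM in aged WT sham hearts, and 3.26 CPM in young WT IR and 12.3 CPM in young WT sham hearts. Cxcr1, the neighbour of Cxcr2, had at most 3 counts in any group.

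**Figure D4:**
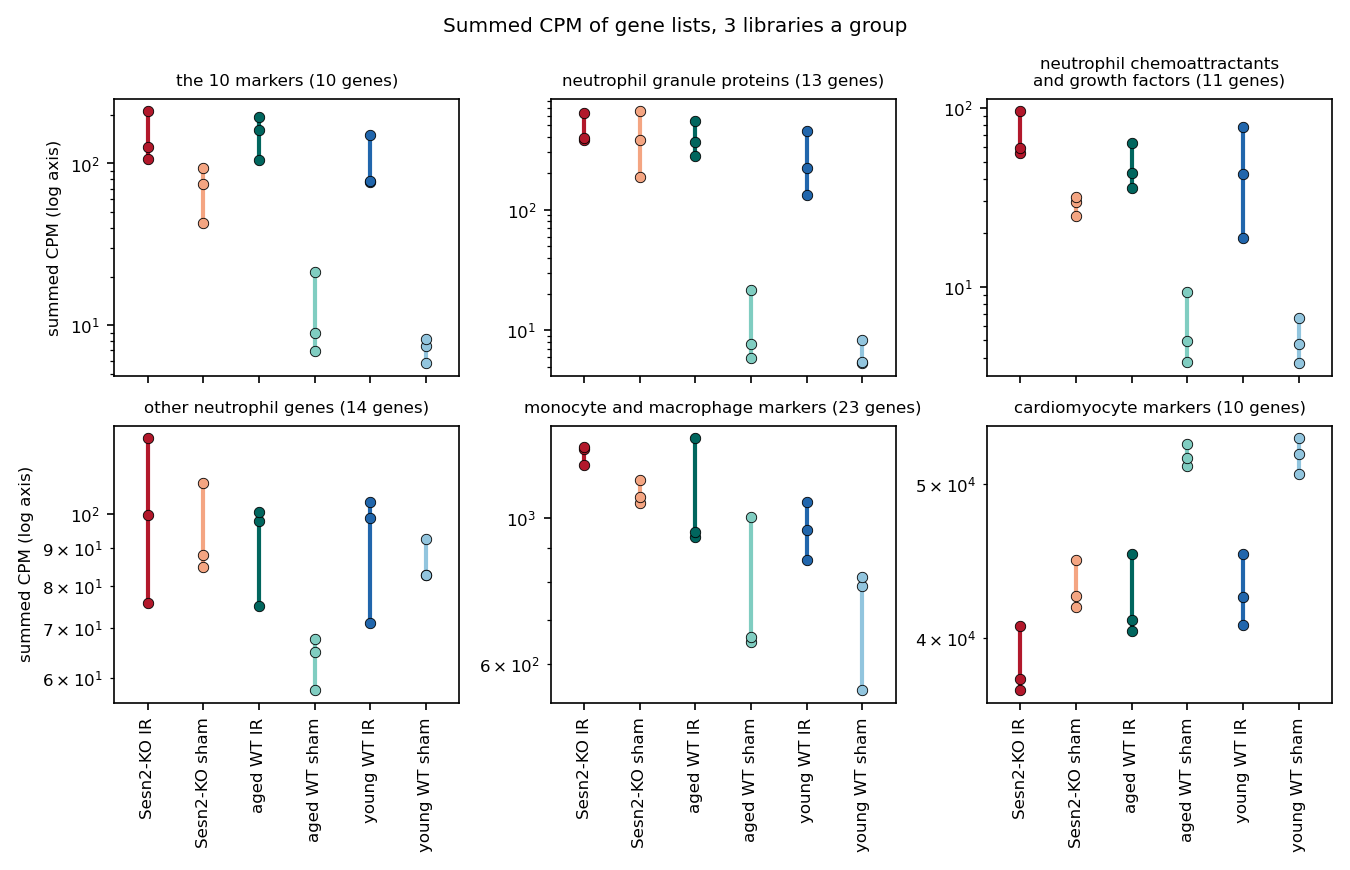
Summed CPM of the 10 markers and of 5 other gene lists, on log axes, with 1 point per heart and a line from the lowest to the highest heart of each group. The markers, granule proteins and chemoattractants are lowest in both WT sham groups. In the IR and Sesn2-KO sham groups most of the granule sum is Lcn2, which stressed parenchymal cells also make. The sum of the 14 other neutrophil genes, most of it G0s2, overlaps between IR and sham hearts in Sesn2-KO and young WT mice. The monocyte and macrophage sum ranges from 548 to 1320 CPM and cardiomyocyte sums are highest in the WT sham hearts.

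Markers of other cells were read beside these results, and their part in them was not tested. Of 23 monocyte and macrophage markers, 6 were higher in Sesn2-KO than in young WT sham hearts. After IR 5 rose in aged WT hearts, 6 in young WT hearts and 0 in Sesn2-KO hearts, where no gene tested was called. Their median after IR was 0.19 in Sesn2-KO and 0.64 in young WT hearts. Msr1, a scavenger receptor of macrophages, was called after IR in aged and young WT hearts. It was also called between the sham groups (1.63 ± 0.29 (SE), adjusted p = 0.00462). Their summed level was 1201 to 1283 CPM in Sesn2-KO IR and 1054 to 1140 CPM in Sesn2-KO sham hearts, 936 to 1320 CPM in aged WT IR and 648 to 1004 CPM in aged WT sham hearts, and 863 to 1055 CPM in young WT IR and 548 to 815 CPM in young WT sham hearts. None of the 23 was at 0 in any group. Cardiomyocyte markers summed to 37063 to 40718 CPM in Sesn2-KO IR and 41838 to 44766 CPM in Sesn2-KO sham hearts, 40412 to 45209 CPM in aged WT IR and 51369 to 52999 CPM in aged WT sham hearts, and 40765 to 45211 CPM in young WT IR and 50722 to 53459 CPM in young WT sham hearts. Of these 10 genes, Myh6 and Mybpc3 fell after IR in aged WT hearts and Mybpc3 in young WT hearts, and none was called between the sham groups.

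Platelet markers summed to 45.0 to 62.4 CPM in Sesn2-KO sham hearts and 18.6 to 32.2 CPM in young WT sham hearts, with 0 of 5 called between them, while Pf4 was called after IR in aged WT hearts. Of 8 T and NK cell markers 5 were tested, and edgeR called Cd3g and Cd3d higher in Sesn2-KO than in young WT sham hearts. Cd247 (-0.78) and Cd4 (-0.47) went the other way there and were not called. The summed level overlapped, at 4.05 to 8.50 CPM in Sesn2-KO sham and 4.63 to 5.96 CPM in young WT sham hearts. Cd3g was also called higher in Sesn2-KO than in young WT hearts after IR (3.30 ± 0.68 (SE), adjusted p = 0.0448). Between IR and sham hearts none rose in any genotype or age, while Cd247 fell in aged WT hearts. No marker of 5 for B cells or of 5 for mast cells was called in these comparisons. The 4 eosinophil markers summed to at most 1.00 CPM in any heart, Prg2 and Epx being at 0 in both young WT groups. The 4 haemoglobin genes are listed at 0 in all 18 libraries, and the red cell gene Alas2 was not called. Of 5 endothelial markers Kdr fell after IR in aged and young WT hearts and was lower in Sesn2-KO than in young WT sham hearts. Of 5 fibroblast markers Col1a1 and Pdgfra rose after IR in aged WT hearts and Col1a1 in young WT hearts. The median log2 fold change over the 5 was 0.23 in aged WT and -0.08 in young WT hearts. Their summed level was 1104 to 1698 CPM in aged WT IR and 1062 to 1384 CPM in aged WT sham hearts. It was 1278 to 1607 CPM in young WT IR and 1095 to 1527 CPM in young WT sham hearts, so the states overlapped.

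All 10 markers passed the filter on low counts, which needs 0.779 CPM in a sufficient number of libraries. S100a9 and Csf3r exceeded it in 18 libraries, S100a8 in 17 and Clec4d in 16, whereas Trem1 exceeded it in 8 and Fpr1 in 5, none of them a sham heart. Clec4e, Cxcr2 and Retnlg exceeded it in no WT sham heart, and Slfn4 in 1. A gene that passes only through the groups where it is high had to differ between groups, so the counts of called markers describe these genes and are not given as support.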

How the data were processed

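Left-ventricle RNA of 18 hearts was sequenced as paired-end reads from stranded mRNA libraries, per the labels' protocols. The authors deposited 1 table of whole-number counts per gene and library, not normalized. TopHat2, Bowtie2, HTSeq, SAMtools and FastQC are named with mm10 in the submitters' processing notes, and the annotation and strand option are not stated there. Lines for fragments in no gene (6.12% to 9.06%) or in several genes (0.631% to 0.759%) were left out. Depth was 9404531 to 14458047 counts.

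Counts were filtered with filterByExpr (13859 of 24421 genes), scaled by TMM and fitted with edgeR 4.0.16 in R 4.3.3 by quasi-likelihood with 1 mean for each of 6 groups. Benjamini-Hochberg adjustment was over all genes tested in each of 9 contrasts, and genes were called below 0.05. Alternatives were other scalings, no filter, DESeq2 1.42.0, voom in limma 3.58.1, the compared groups alone, a replicate block and each library left out; leaving out 6 length-tilted libraries was chosen after seeing the data. A log2(CPM + 0.5) scale was used for correlations.

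The 10 markers and the other gene lists were chosen with earlier results of these data known. Besides the 10, up to 4 genes with the smallest p in young WT hearts and those called were named from each list; genes named for having few counts, and others outside this rule, were chosen after their values were seen. No pair of replicates agreed within counting noise (chi-square per degree of freedom 8.48 to 48.3). No label gives the litter, surgery day or batch of a heart, and p-values therefore reflect only the spread among these hearts. Gene positions are from GENCODE M21 and promoters from RefSeq. Exact intervals cover counting error only.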

Additional observations from a re-analysis of the deposited data

Results flagged for a closer look

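The IR response of Clec4d differed between Sesn2-KO and young WT hearts. On the log2 scale the difference of responses was -3.35 ± 0.47 (SE, edgeR's quasi-likelihood test over all genes, adjusted p = 0.0111), with a response of 0.75 ± 0.28 in Sesn2-KO hearts and 4.09 ± 0.37 in young WT hearts. The difference was below 0 for all 10 markers, and edgeR called 0.0577% of genes tested lower. For Retnlg (-4.16 ± 1.32), Clec4e (-3.38 ± 1.06) and S100a8 (-3.28 ± 0.70) it was of similar or larger size with a larger SE, and was not called. All 3 Sesn2-KO sham hearts had 7.03 CPM or more of Clec4d and all 3 young WT sham hearts 1.02 CPM or less. The Clec4d difference contains this sham comparison (3.85 ± 0.37), against 0.50 ± 0.28 between the same mice after IR. The result was not called without young WT sham 1 (adjusted p = 0.0899) or without young WT sham 3 (adjusted p = 0.0538). It was also not called without the 6 length-tilted libraries (-2.94, adjusted p = 0.985). Groups of 3 hearts were too small to look for single outlying samples.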

How the results depend on the processing

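Under the other scalings of library size and without the filter on low counts, the number of markers called stayed within 1.5 times in each of the 9 comparisons. DESeq2 called 1 marker for IR in Sesn2-KO hearts, 1 for aged against young WT sham hearts, 3 for the difference of IR responses between Sesn2-KO and young WT and 9 for Sesn2-KO against young WT sham hearts, where edgeR called 0, 0, 1 and 8. Voom called 7 for IR in Sesn2-KO hearts, 1 for aged against young WT sham hearts and 10 for Sesn2-KO against young WT sham hearts. With the compared groups alone in the fit, 9 markers were called for IR in aged WT hearts and 6 in young WT hearts; 1 and 3 of the 10 did not pass the filter there. Under voom the difference for Fpr1 changed sign, to 0.0693, with no call in either fit; the cause was not tested. Without the 6 length-tilted libraries, 4 markers were called for IR in aged WT hearts, 1 in young WT hearts, 2 between Sesn2-KO and young WT sham hearts and 0 for the difference of Sesn2-KO and young WT responses, with 2 hearts a group in place of 3. With each library left out in turn, the counts were 0 to 0 for IR in Sesn2-KO hearts, 9 to 10 in aged WT hearts, 7 to 9 in young WT hearts, 4 to 7 between Sesn2-KO and young WT sham hearts and 0 to 1 for the difference between Sesn2-KO and young WT. They were 0 to 0 in the other 4 comparisons.

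Same-numbered replicates did not deviate together in every pair of any comparison, so the numbers were not taken as pairs. With a replicate block the counts were 0 for IR in Sesn2-KO hearts, 10 in aged WT and 9 in young WT hearts, 7 between Sesn2-KO and young WT sham hearts (Csf3r at an adjusted p of 0.0529) and 1 for the difference between Sesn2-KO and young WT. Of 1456 log2 fold changes of single markers under all alternatives, 1337 kept their direction and their side of the threshold, 52 lost a call, 16 gained one and 51 changed sign; 50 of the 51 were uncalled values in comparisons of aged with young WT or of Sesn2-KO with young WT after IR. Depth limits Trem1, Fpr1, Clec4e, Cxcr2 and Retnlg in WT sham hearts. The alternatives were fitted over all genes, but values of single genes outside the 10 were not read from them.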
